A study of Mus musculus with 8 samples.

Results

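The 8 genes of the neutrophil primary granule programme were followed across the series by name, namely Mpo, Elane, Prtn3, Ctsg, Ms4a3, Fcnb, Hk3 and Igsf6. All 8 were among the 19879 gene names that the 8 libraries listed. The series measured RNA of single sorted mouse bone marrow progenitor cells by CEL-Seq2, in which each cell has a barcode and each captured transcript a molecular identifier. The 4 groups of 2 libraries each were plate2 Mof -/+, plate2 wild type, HSC (haematopoietic stem cell) Mof -/+ and HSC wild type, and all came from bone marrow labelled as progenitor cells. Mof, now called Kat8, encodes a histone lysine acetyltransferase, and Mof -/+ mice carry a single functional copy. The design text names sort gates from stem cells to erythroid, megakaryocyte, pre-granulocyte-monocyte and granulocyte-monocyte progenitors, but gates are not tied to wells, and age and number of animals are not stated. The labels do not say whether both libraries of a group were made from different animals. The p-values therefore rest on the variation among the libraries alone, and that variation may be technical.

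Primary, or azurophil, granules are the first granules that a developing neutrophil makes, and their proteins are transcribed at the progenitor and promyelocyte stages and then shut off. Mpo encodes myeloperoxidase, which makes hypochlorous acid, and Elane, Prtn3 and Ctsg encode the serine proteases neutrophil elastase, proteinase 3 and cathepsin G. Ms4a3 encodes a membrane-spanning protein made in granulocyte and monocyte progenitors, and Fcnb encodes ficolin B, a lectin that starts complement. Hk3, a myeloid hexokinase, and Igsf6, an immunoglobulin superfamily membrane protein, are expressed in myeloid cells but are not granule enzymes.

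Elane and Prtn3 are neighbours on chromosome 10, with 3072 bases between the annotated genes (GENCODE M21, GRCm38). The DNA before the start sites of 5 members is shown, because Mpo, Elane, Prtn3 and Ctsg carried almost all member transcripts and Fcnb had a pattern of its own. Each sequence is from RefSeq (GRCm38.p6), reads 5′ to 3′ on the strand of its gene, and ends before the first exon base of GENCODE. The stretches are chr11:87793534-87793580 on the plus strand for Mpo, chr10:79886062-79886246 and chr10:79879417-79879613 on the plus strand for Elane and Prtn3, chr14:56102575-56102824 on the minus strand for Ctsg and chr2:28084886-28085128 on the minus strand for Fcnb. The stretch of Prtn3 lies inside the longer gene model of GENCODE, outside its exons. Capitals mark matches to motifs of myeloid transcription factors.
Mpo: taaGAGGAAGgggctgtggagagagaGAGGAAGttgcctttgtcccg
Elane: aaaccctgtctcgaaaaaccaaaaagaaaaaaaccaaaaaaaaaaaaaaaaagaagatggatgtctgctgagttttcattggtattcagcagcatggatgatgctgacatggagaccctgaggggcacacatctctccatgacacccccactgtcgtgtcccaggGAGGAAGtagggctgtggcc
Prtn3: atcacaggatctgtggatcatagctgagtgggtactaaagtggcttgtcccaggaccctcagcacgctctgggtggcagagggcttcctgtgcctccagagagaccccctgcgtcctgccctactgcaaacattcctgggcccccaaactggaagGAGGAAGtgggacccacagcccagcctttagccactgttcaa
Ctsg: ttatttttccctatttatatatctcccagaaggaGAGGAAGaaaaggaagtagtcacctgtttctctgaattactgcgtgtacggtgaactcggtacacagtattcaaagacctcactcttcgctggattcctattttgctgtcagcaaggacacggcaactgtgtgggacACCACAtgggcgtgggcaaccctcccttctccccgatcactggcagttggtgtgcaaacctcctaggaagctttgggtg
Fcnb: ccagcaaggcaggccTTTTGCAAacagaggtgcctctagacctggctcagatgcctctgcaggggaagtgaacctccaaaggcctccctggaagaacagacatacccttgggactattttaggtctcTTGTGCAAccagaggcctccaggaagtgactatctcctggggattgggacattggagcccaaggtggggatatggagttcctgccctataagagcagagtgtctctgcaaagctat
The motifs of 4 factors were searched on both strands in the 250 bases before the RefSeq start of all 8 members. The PU.1 motif GAGGAAG was in 5 members, Mpo (2 matches), Elane, Prtn3, Ctsg and Hk3, against 10.6% of 32851 windows of the same length. It began 85 bases before the RefSeq start in Elane and 95 in Prtn3, and 216 bases before it in Ctsg. The MYB motif AACGG was in Elane, inside the first GENCODE exon, and in Prtn3, where it ran into an exon, and is marked in neither, against 14.5% of windows. The C/EBP motif TTGCNNAA was in 1 member, Fcnb, with 2 matches, against 9.56% of windows. The RUNX motif TGTGGT was in Ctsg and Hk3, against 14% of windows. The marked matches do not overlap each other, and a match describes the letters only.

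A barcode with 1000 or more transcripts was taken as a well, which left 436 of 1536 barcodes, from 45 to 68 per library, with 424794 to 734550 kept transcripts per plate2 library, 201147 to 244299 per HSC Mof -/+ library and 99312 to 103075 per HSC wild type library. Kat8 itself gave 9 and 12 transcripts in the plate2 Mof -/+ libraries, 10 and 4 in plate2 wild type, 1 and 2 in HSC Mof -/+ and 1 and 2 in HSC wild type, too few to check the genotype. Each library mainly used barcodes 1 to 96 or 97 to 192, and 2.29% to 13.6% of its transcripts lay on the other barcodes. Libraries of a set shared kept barcodes: 55 barcodes were kept in 2 or more plate2 libraries and 62 in 2 or more HSC libraries. Some of these held under 10% of the transcripts of the same barcode in another library of the set, and are called low copies here. Single wells are therefore described over the 178 plate2 and 230 HSC wells that were kept, lay on the library's own barcodes and were no low copies. In plate2 wild type library 2, no barcode at the position richest in these genes reached the minimum, and results that rest on that library are given with and without it.

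The members were mainly plate2 genes, and 1 plate2 library lacked most of them. Mpo gave 1002 and 768 transcripts in kept wells of plate2 Mof -/+ libraries 1 and 2, against 728 and 7 in plate2 wild type libraries 1 and 2. That is 1589 and 1132 CPM (transcripts scaled to the same total in every library) in Mof -/+ and 991 and 16.5 CPM in wild type. HSC libraries held 0 and 1 Mpo transcripts in Mof -/+ and 0 and 1 in wild type. The 3 other plate2 libraries were high, plate2 wild type library 2 was low, and the HSC libraries were near 0.

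The protease genes were likewise lowest among plate2 libraries in wild type library 2. Elane gave 454 and 162 transcripts in plate2 Mof -/+, against 211 and 1 in plate2 wild type. Ctsg gave 324 and 180 transcripts in plate2 Mof -/+, against 215 and 3 in plate2 wild type, and 0 in all 4 HSC libraries. For both genes wild type library 1 lay between the 2 Mof -/+ libraries, so the plate2 genotypes overlapped. Prtn3 gave 583 and 351 transcripts in plate2 Mof -/+, against 305 and 46 in plate2 wild type. It was also the only member with at least 9 transcripts in every HSC library, with 58 and 46 transcripts in Mof -/+ and 9 and 16 in wild type.

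Among the smaller members, Ms4a3 gave 53 and 24 transcripts in plate2 Mof -/+, against 33 and 0 in plate2 wild type, and none in HSC libraries. Igsf6 gave 32 and 33 transcripts in plate2 Mof -/+, against 27 and 1 in plate2 wild type. Hk3 was spread more evenly, with 33 and 38 transcripts in plate2 Mof -/+, 38 and 7 in plate2 wild type, 9 and 13 in HSC Mof -/+, and 3 and 2 in HSC wild type. Fcnb was the rarest, with 29 and 1 transcripts in plate2 Mof -/+, 0 and 0 in plate2 wild type, 2 and 4 in HSC Mof -/+, and 0 and 0 in HSC wild type.

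**Figure D1:**
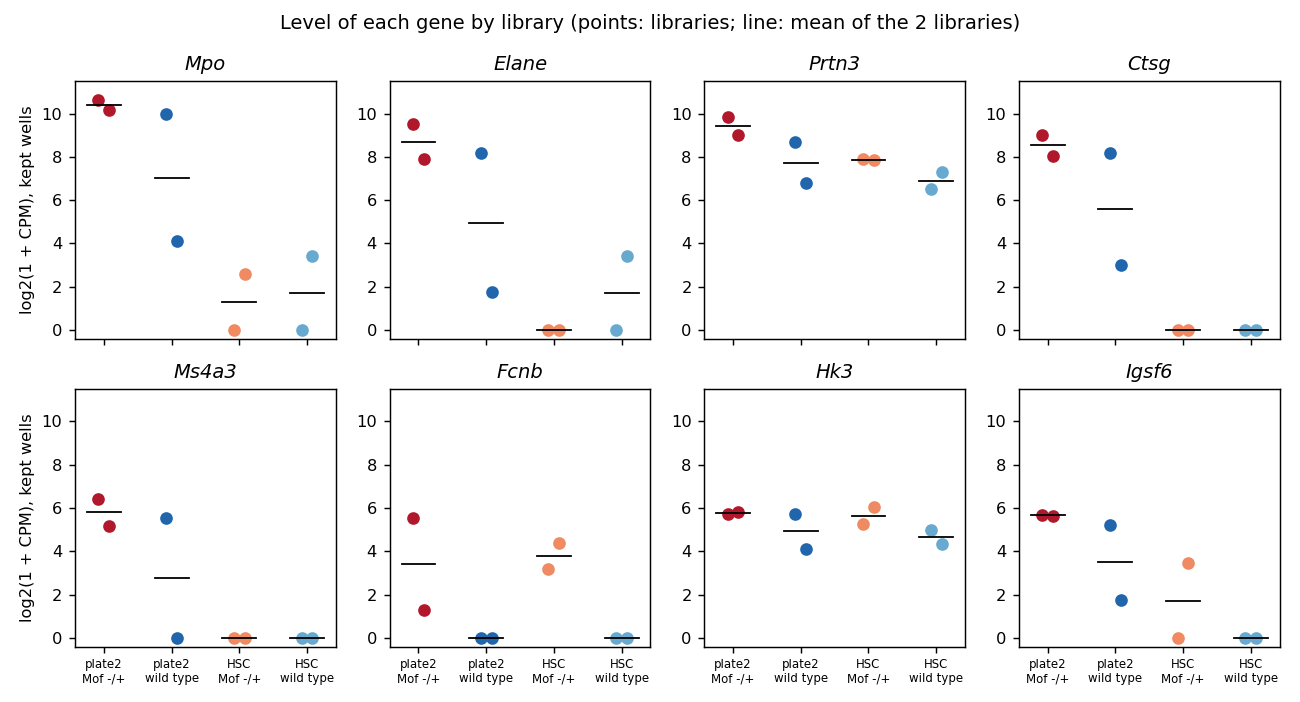
Level of each of the 8 genes in each library, as log2(1 + CPM) over kept wells; points are libraries, the line is the mean of the 2 libraries, and groups run from plate2 Mof -/+ to HSC wild type. Mpo, Elane, Ctsg, Ms4a3 and Igsf6 are high in 3 plate2 libraries and low in plate2 wild type library 2, while Prtn3 and Hk3 are above 0 in all 8 libraries.

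Within plate2 libraries almost all member transcripts came from 1 barcode position. Barcodes were numbered in runs of 16, and position means the place of a barcode in its run. Position 9 held 94.1% of 2507 member transcripts in plate2 Mof -/+ library 1, 90.8% of 1534 in Mof -/+ library 2 and 88.7% of 1464 in wild type library 1. It held 0 of 64 in wild type library 2. Over the 4 libraries it held 98.4% of Elane transcripts, 97.2% of Ms4a3, 91.5% of Mpo, 91.5% of Ctsg, 89.0% of Igsf6, 84.5% of Prtn3 and 74.3% of Hk3. The labels give no plate map, so no position is assigned to a gate.

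Wild type library 2 had no kept well at position 9. Each library has 6 own barcodes at position 9, of which 3 in Mof -/+ library 1, 4 in Mof -/+ library 2, 3 in wild type library 1 and 0 in wild type library 2 were kept and no low copies. The highest total at position 9 was 36622, 31167 and 38371 transcripts in the first 3 of these, against 870 in wild type library 2. In sums over a library, fewer cells of a type and less RNA per cell cannot be told apart, and here the missing wells move with the low member counts of wild type library 2.

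**Figure D2:**
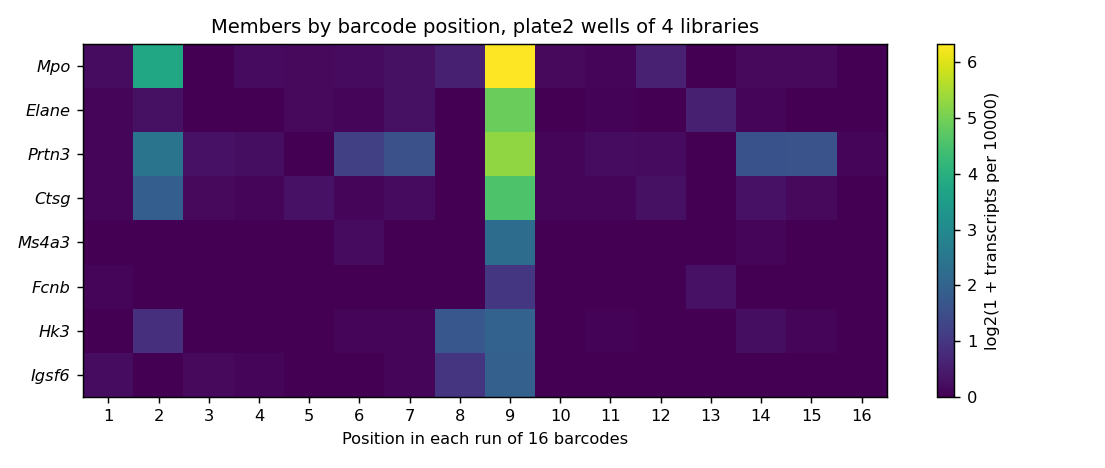
Transcripts of each gene per 10000 transcripts, as log2(1 + value), summed over 178 plate2 wells by barcode position. Position 9 has the highest value for each of the 8 genes, though Fcnb is faint there (0.991 per 10000, from 1 of 10 wells). Position 2 stands out for Mpo, Prtn3 and Ctsg but hardly for Elane. Weaker values lie at positions 6, 7, 14 and 15 for Prtn3 and at position 8 for Hk3 and Igsf6.

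The 10 wells at position 9 held from 157 to 1331 member transcripts, with a median of 397.5. Members made up 0.580% to 3.63% of all transcripts of a well, with a median of 1.61%. Mpo ranged from 79 to 455 transcripts per well (median 203), Prtn3 from 29 to 323 (median 76.5), Elane from 5 to 274 (median 48) and Ctsg from 19 to 174 (median 47.5). Mpo, Elane, Prtn3, Ctsg, Hk3 and Igsf6 were found in all 10 wells and Ms4a3 in 9, so 9 wells held these 7 genes together. Fcnb was found in 1 of the 10.

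The members' proportions were not fixed among these wells. In wild type library 1 the well with the most member transcripts held 319 Mpo and 152 Elane transcripts, while the well with the fewest held 79 Mpo and 5 Elane. Elane per 10000 transcripts ranged from 26.1 to 74.8 in the 3 wells of Mof -/+ library 1, from 11.6 to 19.5 in the 4 wells of Mof -/+ library 2 and from 1.85 to 60.7 in the 3 wells of wild type library 1. Mpo per 10000 transcripts ranged from 81.2 to 124, from 41.1 to 89.5 and from 29.2 to 127 in the same 3 libraries. The wells of the genotypes overlapped for both genes. Only 1 wild type library had such wells, so their level per well has no comparison of genotypes over libraries.

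A single well of Mof -/+ library 1 stood apart. It held 455 Mpo, 274 Elane, 323 Prtn3, 174 Ctsg, 39 Ms4a3, 28 Fcnb, 17 Hk3 and 21 Igsf6 transcripts among 36622, each the highest count of the 10 wells. Scaled to 10000 transcripts, this well was below a wild type library 1 well for Mpo (124 against 127). It was also below a Mof -/+ library 2 well for Igsf6 (5.73 against 8.11). It held 28 of the 30 Fcnb transcripts of kept plate2 wells, and 274 of the 454 Elane transcripts of its library. Its S100a8, which encodes a calprotectin subunit of later neutrophils, stood at 123 transcripts, against 0 to 3 in the other 9 wells. Its Cebpe, which encodes a factor of late granulocyte development, stood at 5, against 0 or 1, and Srgn, the proteoglycan core of granules, at 216, against 7 to 76. Irf8, a factor of monocyte and dendritic cell development, stood at 1 transcript, against 9 to 38 in the other 9 wells. F13a1, Csf1r, Ly86 and Ccr2, genes of monocytes, were each at 0 there, against medians of 16, 3, 9 and 5 in the others. Ly6c2, a surface gene of monocytes and their progenitors, was at 75 there and at 18 to 106 in the others.

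The same wells also held genes of monocytes, and the genes of mature neutrophils were mixed. Position 9 held 589 Ly6c2, 195 Irf8, 190 F13a1, 73 Ly86, 46 Ccr2 and 38 Csf1r transcripts beside 2241 Mpo transcripts. Of the dendritic cell and antigen presentation genes, Cd74, H2-Aa and Siglech were at 0 there. Of the 12 mature neutrophil genes of the list, Ngp, Ltf, Mmp9, Retnlg and Ly6g were at 0 there, and Camp, Lcn2 and Mmp8 at 2, 2 and 1 transcripts. The other 4 were present, S100a8 with 129 transcripts in 5 wells, S100a9 with 43 in 2 wells, Cybb, an NADPH oxidase subunit gene, with 40 in 8 wells and Cxcr2 with 15 in 6 wells. The single well of Mof -/+ library 1 described above held 123 of the S100a8, 42 of the S100a9 and all of the Camp transcripts. Fcgr3, which encodes part of the CD16/32 antigen of the sort gates, gave 60 transcripts in 9 of the 10 wells, against 1 transcript in 11 wells at position 2 and 9 transcripts in 157 wells elsewhere. Not all receptor genes of the sort gates went this way. Per 10000 transcripts, Fcgr2b stood at 0.460 at position 9 against 0.239 elsewhere. Kit, Eng and Slamf1 were lower at position 9 than elsewhere (1.17 against 3.07, 0.425 against 0.631 and 0 against 0.184).

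Transcription factor genes of granulocyte progenitors were found in the same wells. Cebpa, the main C/EBP gene of this stage, gave 38 transcripts at position 9, 9 at position 2 and 2 elsewhere. Gfi1, a repressor needed for neutrophil development, gave 25, 0 and 9, and Spi1, which encodes PU.1, gave 28, 5 and 27. Myb was spread more widely, with 103 transcripts at position 9 and 921 in the 157 wells elsewhere.

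Position 2 held the members at a lower level and in other proportions. In its 11 wells, which had a median of 12396 transcripts against 26945 at position 9, Mpo gave 179 transcripts in 10 wells, Prtn3 63 in 9 wells and Ctsg 39 in 8 wells. Elane gave 3 transcripts in 2 wells, and Ms4a3, Fcnb and Igsf6 gave none. Per 10000 transcripts, Mpo stood at 79.3 at position 9 against 12.5 at position 2, Prtn3 at 37.6 against 4.41, Ctsg at 22.8 against 2.73 and Elane at 28.5 against 0.210. For every 100 Mpo transcripts there were 47.4 Prtn3 transcripts at position 9 against 35.2 at position 2, and 28.7 Ctsg against 21.8, but 35.9 Elane against 1.68. Irf8 stood at 6.90 per 10000 at position 9 and 7.84 at position 2, and was found in all 11 wells at position 2.

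Some genes of another lineage were also present at position 2. The lymphoid genes Dntt, Ighm and Ebf1 gave 35, 40 and 25 transcripts in its 11 wells, and Flt3, a cytokine receptor gene of early lymphoid and myeloid progenitors, gave 34. All 25 Ebf1 transcripts came from 1 well. Il7r and Rag1 were at 0 at position 2, and Ighm was also found at position 9, with 29 transcripts in 9 of 10 wells. A Mof -/+ library 1 well there had 48 transcripts of the lymphoid list and 1 member transcript. These values stand beside the low Elane of position 2, and their part in it was not tested.

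**Figure D3:**
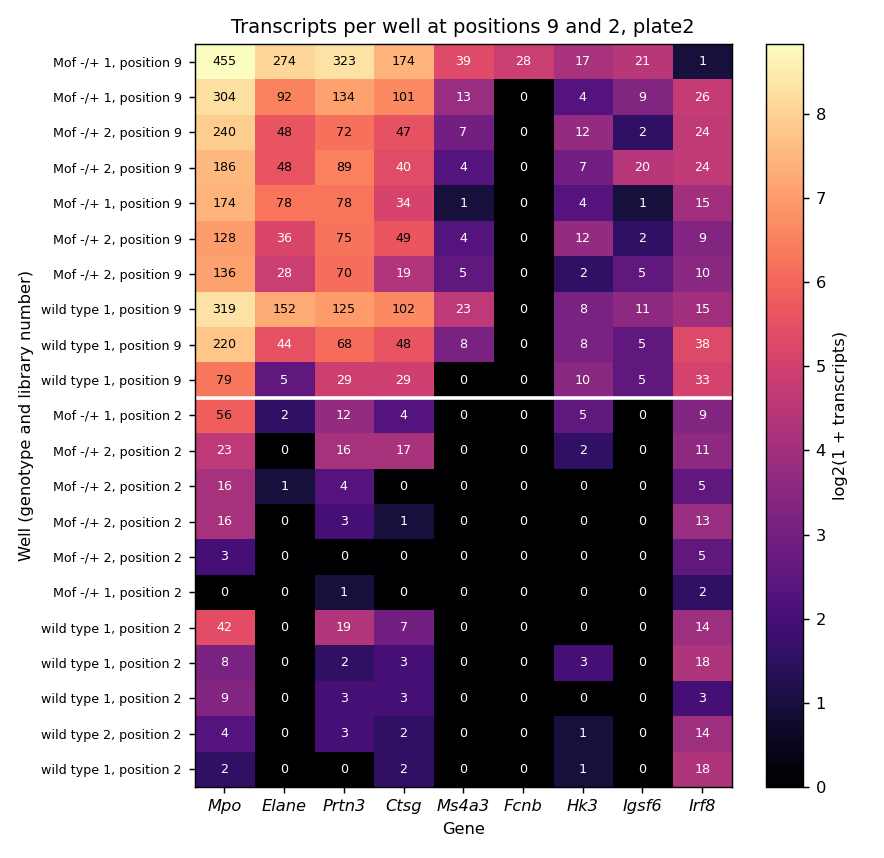
Transcripts of the 8 genes and of Irf8 in each plate2 well at position 9 (10 rows, above the white line) and position 2 (11 rows); numbers are transcripts, colour is log2(1 + transcripts), and rows are ordered by genotype and summed members. The top row, with 455 Mpo and 28 Fcnb transcripts, has 1 Irf8 transcript, and Elane is at 0 to 2 in every row at position 2.

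Co-detection in wells followed from these positions. Of the 178 plate2 wells, 63 held no member, 67 held 1 member, 34 held 2 or 3, and 14 held 4 or more. Of the 14, 10 were at position 9 and 4 at position 2. Elane was found in 21 wells, of which 13 (61.9%) also held Mpo, and these were 31.0% of the 42 wells with Mpo. Ms4a3 was found in 11 wells, of which 9 held Mpo, and 9 each held Elane, Prtn3 and Ctsg. Across the 178 wells, log2(1 + transcripts per 10000) of Elane correlated with Ms4a3 at 0.89, with Ctsg at 0.86 and with Mpo at 0.82, and Mpo with Ctsg at 0.85. Fcnb had the lowest values, down to 0.22 with Hk3. These correlations describe wells that share libraries and differ in depth, and the 10 wells at position 9 hold most of the transcripts.

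Wells with erythroid genes also held a few member transcripts. In 96 plate2 wells with at least 10 transcripts of erythroid genes (median depth 14055), Mpo was found in 16.7% of wells (exact Clopper-Pearson 95% interval 9.84% to 25.7%) with at most 3 transcripts per well, Ctsg in 9.38% and Elane in 7.29%. The other 82 wells had Mpo in 31.7% at a lower median depth of 6999. These 96 wells are not all of 1 kind, since 28 of them lay at positions 6, 7, 14 and 15, which were rich in stem cell genes. At positions other than these, 2 and 9, 67 erythroid wells (median depth 17301) held Mpo in 17.9% of wells, Prtn3 in 17.9%, Ctsg in 11.9% and Elane in 5.97%, each with at most 3 transcripts per well. Where these few transcripts came from was not tested. Intervals cover counting error only.

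Prtn3 was also found at positions where Mpo was low. Positions 6, 7, 14 and 15, which were picked after their values were seen, held 19.5 transcripts of stem cell genes per 10000 transcripts, against 1.34 at the remaining positions other than 2 and 9. Prtn3 was found there in 43 of 66 wells (65.2%, 95% interval 52.4% to 76.5%), against 13 of 91 wells (14.3%, 7.83% to 23.2%) at the remaining positions. It gave 116 transcripts there, or 1.84 per 10000, against 16 transcripts, or 0.116 per 10000. The intervals do not allow for the choice of positions, so the difference is a description and no test. The remaining positions were the deeper, with a median of 13357 transcripts per well against 9185. Mpo did not share this difference, at 0.143 and 0.145 per 10000.

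Each plate2 library taken singly had the same direction, but the positions were picked from these same wells, so this is no independent support. Prtn3 per 10000 transcripts at positions 6, 7, 14 and 15 was 2.25 and 0.935 in Mof -/+ libraries 1 and 2, and 1.79 and 2.26 in wild type libraries 1 and 2. At the remaining positions it was 0.106 and 0.152 in Mof -/+ and 0.105 and 0.0883 in wild type. Libraries of both genotypes overlapped in this level. In the number of wells with Prtn3 at positions 6, 7, 14 and 15 they did not, with 9 of 17 and 7 of 13 wells in Mof -/+ and 14 of 18 and 13 of 18 in wild type, and this difference was not tested. The wild type wells there were also the deeper, with median totals of 9150 and 9505 transcripts against 8339 and 8729 in Mof -/+. Wild type library 2 had 41 of its 46 Prtn3 transcripts at these 4 positions, where it had as many kept wells (18) as wild type library 1.

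In HSC libraries Prtn3 was found with almost no Mpo, Elane or Ctsg. It was found in 32 of 68 and 33 of 67 wells of HSC Mof -/+ libraries 1 and 2, and in 8 of 49 and 11 of 46 wells of HSC wild type libraries 1 and 2. Of these 84 wells, 1 also held Mpo, Elane or Ctsg, and 11 held Hk3, all 11 in Mof -/+ libraries. Hk3 itself was found in 6 of 68 and 8 of 67 wells in Mof -/+, and in 2 of 49 and 2 of 46 in wild type. So few wild type wells with Hk3 leave the absence of shared wells there uninformative. Most wells with Prtn3 held a single transcript of it, 41 of 65 in Mof -/+ and 14 of 19 in wild type. The shares were 47.1% and 49.3% in Mof -/+ and 16.3% and 23.9% in wild type, but the Mof -/+ wells were deeper, with median totals of 2923 and 2979 against 1664 and 1567. With every well thinned to 1000 transcripts, Prtn3 was found in 25% and 25.4% of Mof -/+ wells and in 10.2% and 15.2% of wild type wells. The genotypes did not overlap in either measure, but 2 libraries against 2 cannot give an exact two-sided permutation p below 0.333. Per 10000 transcripts, Prtn3 stood at 2.37 and 2.30 in HSC Mof -/+ and at 0.919 and 1.55 in HSC wild type, each above the 0.116 of the remaining plate2 positions. Those positions were the ones left after the choice by values.

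**Figure D4:**
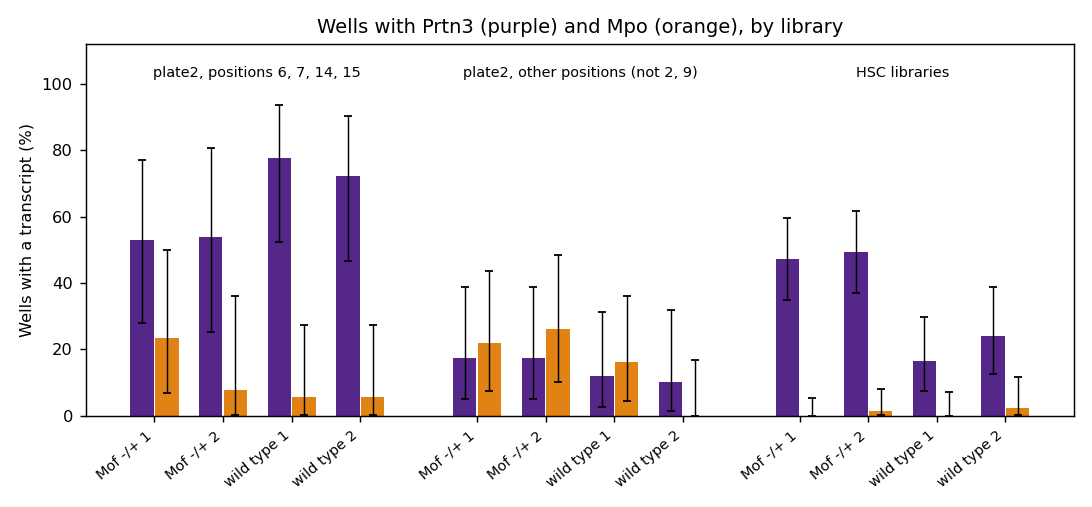
Share of wells with a Prtn3 transcript (purple) or an Mpo transcript (orange) in each library, at plate2 positions 6, 7, 14 and 15, at the remaining plate2 positions other than 2 and 9, and in HSC libraries; bars are percent of wells and lines are exact 95% intervals. Prtn3 exceeds Mpo in all 4 plate2 libraries at the first positions, which were picked after their values were seen, and in all 4 HSC libraries.

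Fcnb, Hk3 and Igsf6 were also found beside mature neutrophil genes. In HSC libraries the 6 Fcnb transcripts of kept wells came from 2 Mof -/+ wells, with 2 transcripts in library 1 and 4 in library 2. These wells also held 253 and 377 transcripts of mature neutrophil genes. In plate2, position 8 held 10 Hk3 and 4 Igsf6 transcripts in 12 wells, with 2 Mpo and no Elane, Prtn3 or Ctsg. Mature neutrophil genes gave 7 and 6 transcripts at position 8 in the Mof -/+ libraries (5 wells), against 1938 and 879 in the wild type libraries (7 wells). Hk3 gave 0 and 0 there in Mof -/+, against 6 and 4 in wild type. Whether cells of that kind supplied these transcripts was not tested.

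Member transcripts also appeared at the same barcode in plate2 libraries other than that of the well. In all, 8 barcodes of position 9 had a member-rich well in a single plate2 library, and all 24 of their counterparts in the other plate2 libraries held member transcripts, 264 in all. A counterpart held 0.751% to 7.17% of the well's member transcripts (median 1.93%) and 1.58% to 6.38% of its total (median 2.18%). The same barcodes of HSC libraries held 7 member transcripts, in 7 of 32 counterparts. Of 32 plate2 barcodes with at least 10 member transcripts, 11 were low copies, all at position 9, and 19 were wells of their own library. How transcripts came to share a barcode was not tested.

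**Figure D5:**
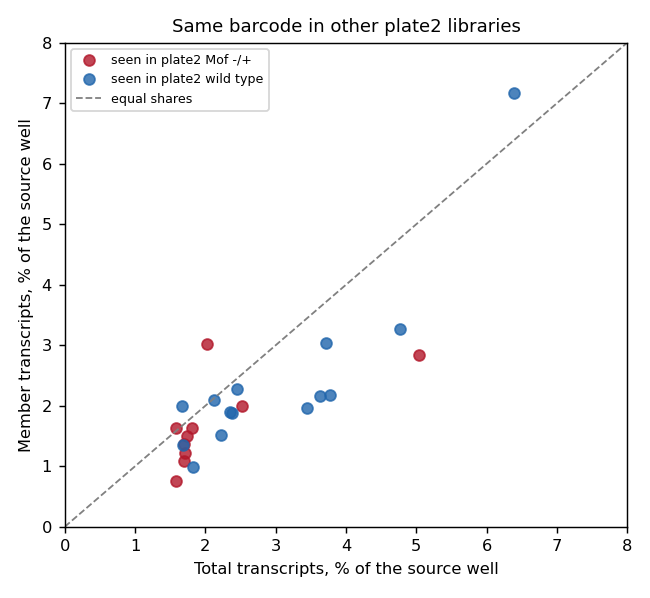
Barcodes at position 9 seen in a plate2 library other than that of the member-rich well; each of the 24 points is a barcode in another library, with its total transcripts (horizontal axis) and its member transcripts (vertical axis), both as percent of the well's. Most points lie below the line of equal shares, such as members at 2.84% against a total of 5.04%. A few lie above it, such as 7.17% against 6.38%. Members had a median of 1.93% and totals a median of 2.18%.

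The comparison of plate2 with HSC libraries sets wells of mixed kinds, stem cell genes included, against wells sorted as stem cells. In Mof -/+ libraries, 6 of the 7 members that passed the filter on low counts were higher in plate2 by edgeR's quasi-likelihood test at a Benjamini-Hochberg adjusted p under 0.05, against 11.9% of 6690 genes (22.1% in either direction, 10.3% lower). Fcnb did not pass the filter. Mpo, Elane, Ctsg, Ms4a3 and Igsf6 had 2 transcripts or fewer in each HSC group. They passed the filter through their plate2 counts, so a call could only be in the higher direction. The count of 6 is to be read with that limit. Mpo was 602-fold higher on CPM (95% counting interval 108 to 23802, from 1770 transcripts against 1, edgeR's adjusted p = 0.00013). Counting intervals here cover the counting error of transcripts summed over a group, and not the spread between its libraries. Elane was at least 69.98-fold higher (617 transcripts against 0, adjusted p = 0.000621 by edgeR) and Ctsg at least 57.3-fold higher (505 against 0, adjusted p = 0.000566), where 0 was set to 3 transcripts over the group. Prtn3 rose by 1.82 ± 0.43 on the log2 scale (SE, adjusted p = 0.00527 by edgeR). Ms4a3 was at least 8.73-fold higher (77 against 0, adjusted p = 0.00814) and Igsf6 11.1-fold higher (65 against 2, counting interval 2.94 to 93.2, adjusted p = 0.0162). Hk3 differed by 0.32 ± 0.48 (adjusted p = 0.672). DESeq2 called 4 members, and without plate2 Mof -/+ library 1, which holds the well with the most member transcripts, edgeR called 3. The adjusted p was then 0.0926 for Prtn3, 0.0789 for Ms4a3 and 0.0974 for Igsf6. Igsf6 also lost its call without plate2 Mof -/+ library 2 (0.106) or HSC Mof -/+ library 1 (0.124). After thinning, Prtn3 stood at 0.86 (adjusted p = 0.128 by edgeR).

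In wild type libraries 2 of 7 members, Mpo and Ctsg, were higher in plate2 by the same test, against 9.64% of genes (17.8% in either direction, 8.13% lower). Both passed the filter through their plate2 counts, so the same limit holds. Over the summed group, Mpo was 128-fold higher (95% counting interval 23.0 to 5074, from 735 transcripts against 1, edgeR's adjusted p = 0.00513). Ctsg was at least 12.7-fold higher (219 against 0, adjusted p = 0.0244 by edgeR). Neither fold describes plate2 wild type library 2. Mpo stood at 991 and 16.5 CPM in plate2 wild type libraries 1 and 2, against 4.94 CPM over HSC wild type. Ctsg stood at 293 and 7.06 CPM, where 3 transcripts make 14.8 CPM in HSC wild type. The call of Ctsg was lost with DESeq2 (adjusted p = 0.154), with a replicate block (0.106) and with 2000 transcripts per well (0.0813). Elane, at 212 transcripts against 1, had an adjusted p of 0.052, and Prtn3, at 1.37 ± 0.53 on the log2 scale, one of 0.0748 by edgeR. Prtn3 passed after thinning (1.67, adjusted p = 0.0174) and with 2000 transcripts per well (2.31, adjusted p = 0.0326). Hk3 stood at 0.83 ± 0.76 (adjusted p = 0.47), Igsf6 at 28 transcripts against 0 (adjusted p = 0.12) and Ms4a3 at 33 against 0 (adjusted p = 0.155). Almost all plate2 wild type transcripts came from library 1. Without it edgeR called 0 members, with an adjusted p of 0.351 for Mpo, and without wild type library 2 it called 6. Without HSC wild type library 1 it called 1, and without HSC wild type library 2 it called 0.

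The comparison of genotypes asks what a missing copy of Mof changes. In plate2, 0 of 7 members passed edgeR's test, against 0.553% of 6690 genes called (0.0299% higher, 0.523% lower), and 2 members had an unadjusted p under 0.05. DESeq2 also called 0, with 1 under an unadjusted 0.05. All 7 fitted values were positive, with a median of 1.14 on the log2 scale against -0.00 over all genes. Wild type library 2 was the lowest plate2 library for each of the 7. Prtn3 stood at 1.29 ± 0.40 (SE, edgeR's adjusted p = 0.345), Elane at 1.49 ± 0.67 (adjusted p = 0.907), Mpo at 1.27 ± 0.70, Ctsg at 1.14 ± 0.61, Ms4a3 at 1.03 ± 0.64, Igsf6 at 0.99 ± 0.58 and Hk3 at 0.41 ± 0.42 (adjusted p = 0.997 each). Without wild type library 2 the values were 0.66 for Prtn3, 0.61 for Elane, 0.33 for Mpo, 0.28 for Ctsg, 0.27 for Ms4a3, 0.31 for Igsf6 and -0.06 for Hk3. Without wild type library 1 edgeR called 4 members, with Mpo at 6.20. Fcnb did not pass the filter and has no test. On summed transcripts it was at least 8.86-fold higher in Mof -/+ (30 transcripts against 0), from a single well for 28 of the 30. Mof -/+ library 2 held 1 Fcnb transcript (1.47 CPM), under the 2.59 CPM that 3 transcripts make in plate2 wild type. The bound therefore describes that well and not both libraries.

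In HSC libraries 0 of 7 members passed edgeR's test, against 0.0149% of genes called, and none had an unadjusted p under 0.05 by edgeR or DESeq2. Prtn3 stood at 0.84 ± 0.55 on the log2 scale (SE, edgeR's adjusted p = 0.602), with 237 and 229 CPM in Mof -/+ and 90.6 and 155 CPM in wild type, groups that did not overlap. Hk3 stood at 0.93 ± 0.80 (adjusted p = 0.708). The other 5 tested members were at 2 transcripts or fewer in both groups. The difference of the genotype effects between plate2 and HSC called 0 members and 0% of genes, with none at an unadjusted p under 0.05 by edgeR or DESeq2. It stood at 0.45 ± 0.70 for Prtn3 (adjusted p = 0.875 by edgeR) and at -0.52 ± 0.92 for Hk3 (adjusted p = 0.897).

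Other genes of the same programme were read from lists. Of 14 tested primary granule and promyelocyte genes, 6 were higher and 3 lower in plate2 than in HSC libraries in Mof -/+, 2 higher and 1 lower in wild type, and 0 passed between genotypes in either set by edgeR's test. Of all 6690 genes, 11.9% were higher and 10.3% lower in Mof -/+, and 9.64% higher and 8.13% lower in wild type, so the wild type counts of this list are near those of all genes. The plate2 against HSC counts of the lists that follow are to be read against the same shares. Genotype counts in plate2 are to be read against 0.0299% of genes higher and 0.523% lower in Mof -/+. Plac8 was higher in plate2 in both genotypes, at 468 and 470 CPM in plate2 Mof -/+ against 16.4 and 79.6 in HSC Mof -/+, and 483 and 89.5 CPM in plate2 wild type against 10.1 and 0 in HSC wild type (edgeR's adjusted p = 0.000447 in Mof -/+ and 0.00109 in wild type). Calr, a chaperone that folds myeloperoxidase, rose by 1.14 ± 0.27 in Mof -/+ and by 0.96 ± 0.29 in wild type on the log2 scale (edgeR's adjusted p = 0.00503 and 0.0269). Gstm1, a glutathione transferase gene, fell by 1.85 on the log2 scale in wild type plate2 (SE 0.36, edgeR's adjusted p = 0.00145). Within plate2 wells, however, Gstm1 stood at 4.28 per 10000 at position 9, against 0.522 outside positions 2 and 9. Calr stood at 21.8 against 5.20. Of 6 tested transcription factor genes, Myb and Irf8 were higher in plate2 Mof -/+, by 1.54 ± 0.29 and 2.10 ± 0.63 on the log2 scale, and Myb in plate2 wild type, by 1.99 ± 0.35.

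Of 10 tested receptor genes of the sort gates, 2 were higher and 3 lower in plate2 Mof -/+ than in HSC Mof -/+, and 1 was higher and 1 lower in wild type. Cd48, which the HSC gate excludes, had 46 transcripts in plate2 Mof -/+ against 0 in HSC Mof -/+. Of 8 tested monocyte and dendritic cell genes, 6 were higher and 2 lower in plate2 Mof -/+, and 1 was higher in plate2 wild type. Of 11 tested mature neutrophil genes, 6 were lower in plate2 than in HSC libraries in Mof -/+ and 1 in wild type. Between plate2 genotypes, 7 were lower in Mof -/+ than in wild type, such as Retnlg with 0 and 0 CPM against 184 and 252 CPM. Most plate2 wild type transcripts of this list lay at position 8, 1938 in 4 wells of library 1 and 879 in 3 wells of library 2. In Mof -/+ that position held 7 and 6. The genotype count thus rests on few wells, and its cause was not tested. Of 10 stem cell genes, 9 were lower in plate2 in Mof -/+ and 6 in wild type. The tested erythroid genes (14) had 3 higher and 1 lower in plate2 Mof -/+ and 2 higher and 1 lower in wild type, the megakaryocyte genes (3) had 2 lower in each and Pf4 higher in plate2 Mof -/+ than in plate2 wild type, and of the basophil and lymphoid lists 1 gene each was tested, Gata2 and Ighm, both higher in plate2 wild type than in HSC wild type.

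The 10 other genes named here were most like the summed members across the 204 kept plate2 wells, by Pearson's r of log2(1 + transcripts per 10000) among 9534 genes. They were Pgam1 (0.71), a glycolytic enzyme gene, Ly6c2 (0.70), Anxa3 (0.67), Irf8 (0.66), Atp8b4 (0.65), Cd93 (0.65), Slpi (0.62), which encodes a protease inhibitor, Alas1 (0.62), the first enzyme of haem synthesis outside erythroid cells, F13a1 (0.61) and Ccl9 (0.59). Slpi gave 78 transcripts in 9 of 10 wells at position 9, 2 at position 2 and 6 in the 157 other wells. Alas1 gave 146 transcripts in all 10 wells, against 4 and 36. The 204 wells include low copies and wells off a library's own barcodes, and over the 178 wells without them 6 of the 10 genes remained among the first 10, while Irf8, Alas1, Slpi and Cd93 ranked 11, 14, 19 and 23. These values describe wells that share libraries and vary in depth, and no p is given.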

How the data were processed

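Per the labels' protocols, sorted bone marrow progenitors were frozen and made into CEL-Seq2 libraries. BWA 0.6.2-r126 and mm10 are named per the submitters' processing notes. Not given in the sources used here: annotation, filters and counter. The deposited values are expected counts, estimated counts of transcripts that are not scaled for depth, and undo to whole numbers of molecular identifiers from a pool of 4096. The 70 spike-in rows stayed out. Rows naming no gene were 0%.

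Kept wells (at least 1000 transcripts) were summed per library, rounded, and compared by the quasi-likelihood test of edgeR 4.0.16 (R 4.3.3, two-sided, with TMM factors and the filterByExpr filter) over 6690 genes in 1 layout of 4 groups. Calls needed a Benjamini-Hochberg adjusted p under 0.05. DESeq2 1.42.0 was an alternative; others were RLE size factors, no filter, 2000 transcripts, all barcodes, thinning to 1000 transcripts, no top member well, a replicate block, only the libraries of a set, and leaving out each library. Own barcodes without low copies was added after seeing the data. CPM carry no TMM factors. A fold against 0 sets the group to 3 transcripts. Low copies hold under 10% of the same barcode's total in another library of the set. No doublet caller was run. Python 3.11.15, numpy 2.4.6, pandas 2.3.3, scipy 1.17.1 and matplotlib 3.10.9 did the rest. The fit was tested on simulated data with known changes.

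Members and lists (other granule genes, transcription factors, receptors, mature neutrophil, monocyte, basophil, erythroid, megakaryocyte, stem cell and lymphoid genes) were chosen with earlier results of these data known. The rule for named genes takes the 8 members, up to 4 passing genes of each list, the 10 genes most like the summed members, and leading list genes of a described well. Genes named by position were chosen after their values were seen.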

Additional observations from a re-analysis of the deposited data

Results flagged for a closer look

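Member transcripts also lay in barcodes under the minimum of 1000 transcripts, which entered no comparison. They came to 118 and 48 transcripts in plate2 Mof -/+ libraries 1 and 2 and to 25 and 94 in plate2 wild type libraries 1 and 2, above the limit of 3 that a count of 0 allows. In wild type library 2 these 94 exceed the 65 member transcripts of its kept wells. Many of these transcripts lay on barcodes at which another plate2 library had a member-rich well at position 9, 47 and 31 of them in Mof -/+ libraries 1 and 2 and 8 and 91 in wild type libraries 1 and 2. The 6 own barcodes of wild type library 2 at position 9 held 47 transcripts. All 47 were at the barcodes of Mof -/+ library 1 wells, with 2.36% to 2.46% of those wells' totals. With all barcodes counted, edgeR called 6 members instead of 2 between plate2 and HSC wild type libraries, and that count therefore includes such low copies.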

How the results depend on the processing

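Members called by edgeR between plate2 and HSC wild type libraries numbered 2, and 1 with DESeq2, 6 without the filter on low counts, 6 over all barcodes, 1 with a replicate block and from 0 to 6 when each library was left out. In Mof -/+ the number was 6, with 2 of 3 tested after thinning to 1000 transcripts and from 3 to 6 when a library was left out. For genotype in plate2 it was 0, with 5 without the filter and from 0 to 4 when a library was left out. The counts in HSC and for the difference of effects stayed at 0 to 0 under every alternative. Own barcodes without low copies, chosen after seeing the data, left 6, 2, 0, 0 and 0. The cause of each change was not tested.

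Replicate numbers stand only in HSC titles. The differences between libraries 1 and 2 correlated at -0.09 between the HSC genotypes over 6690 genes, and 1 such value cannot exclude a pairing. HSC libraries of the same number used the same barcodes, 1 to 96 or 97 to 192. The main fit assumed no pairing. Signs reversed only in values that passed no test. Without the top member well, Hk3 stood at -0.0029 for genotype in plate2 and at -0.19 for plate2 against HSC Mof -/+. When each library was left out, Hk3 ranged from -0.058 to 1.56 for genotype in plate2, from -0.064 to 0.73 for plate2 against HSC Mof -/+, from -0.29 to 1.33 for plate2 against HSC wild type, and from -1.01 to 0.60 for the difference of effects. Prtn3's difference of effects was -0.51 with 2000 transcripts per well and -0.82 after thinning, and ranged from -0.20 to 1.71 when each library was left out. The adjusted p of Elane, plate2 against HSC wild type, ranged from 0.00060 to 0.885 by edgeR when a library was left out, and Elane was lower in plate2 without plate2 wild type library 1. With 1 library left in a group, that library is assumed to vary like the others. In HSC libraries 5 of the 7 tested members had 2 transcripts or fewer in each genotype, so a genotype difference was not detectable there at this depth.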
